A study of Homo sapiens with 6 samples.

Results

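The genes described here are 10 factors that build a new centriole: PLK4, CEP152, CEP192, CEP63, SASS6, STIL, CEP135, CENPJ, CCP110 and CEP97. They were chosen by name for their known role in centriole duplication, with earlier results of these data known, and all 10 were found among the 57773 genes of the deposited expression table through their Ensembl identifiers. The cells were H460, an established line from a human lung carcinoma of the non-small-cell type, and every library came from cells transfected with 50 nM siRNA and collected after 48 hours. Polyadenylated RNA was sequenced from 3 cultures with a non-targeting siRNA (siNT) and 3 cultures with siHKlincR1_2, an siRNA against the long non-coding RNA HKlincR1 (siHKlincR1). A single siRNA against HKlincR1 and a single control siRNA were used, so an effect of the siRNA apart from its target and an effect of HKlincR1 cannot be told apart in these libraries. The values are RPKM, in which reads are divided by the length of the gene and by the size of the library, so they can be compared between libraries. A comparison between genes depends on the gene length used, which was 3972 bases for SASS6 and 10114 bases for CEP63.

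A centriole is a short barrel of microtubules at the core of the centrosome and at the base of a cilium, and a cycling cell builds exactly one new centriole beside each old one. CEP192, CEP152 and CEP63 recruit the kinase PLK4 to the old centriole. PLK4 phosphorylates STIL, and STIL brings in SASS6, whose dimers assemble into the cartwheel that gives the new centriole its symmetry. CEP135 links the cartwheel to the microtubules, CENPJ (also named CPAP) lengthens them, and CCP110 with CEP97 caps the growing end. Transcripts of several of these genes rise and fall with the cell cycle. In RNA from a whole culture, fewer cells in a phase of the cycle and less RNA per cell cannot be told apart.

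The libraries held 24980280 to 30521000 reads, worked back from the RPKM values, of which 89.9% to 91.1% lay on listed genes. The siRNA target HKlincR1 was at 3.62, 3.47 and 3.83 RPKM with siNT and at 0.563, 0.628 and 0.390 RPKM with siHKlincR1 (limma log2 fold change -2.59, adjusted p = 0.00245). Of 5 epithelial markers the keratins KRT8, KRT18 and KRT19 were above 0.5 RPKM on average and EPCAM and CDH1 were below it. Of 6 multiciliated cell markers, which would accompany centriole amplification, MCIDAS and CCNO passed that level while DEUP1 and TEKT1 were listed at 0 in all libraries, and the summed level of the 6 was 9.47 to 11.8 RPKM with siNT and 10.5 to 10.9 RPKM with siHKlincR1. Of 7 leukocyte, endothelial and fibroblast markers only the collagens COL1A1 and COL3A1 passed it, with a summed level of 14.3 to 16.7 RPKM for the list with siNT and 18.0 to 21.7 RPKM with siHKlincR1, and its part in the results was not tested.

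SASS6, the cartwheel protein gene, had the largest difference among the 10 factors and was 39.9% lower on average with siHKlincR1. It had 5.03, 5.87 and 5.26 RPKM in the siNT libraries and 3.43, 2.75 and 3.53 RPKM in the siHKlincR1 libraries. Every siHKlincR1 library lay below every siNT library (p = 0.10 by an exact permutation test, two-sided, below which 3 against 3 libraries cannot go). PLK4 and STIL were also lower in every siHKlincR1 library, by 17.3% and 16.2% on average, and CCP110 was higher in every siHKlincR1 library, by 11.7%. For the other 6 factors the groups overlapped. By the sign of the log2 fold change 8 of the 10 were lower and 2 higher, where 49.8% of the tested genes were lower and 50.2% higher.

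**Figure D1:**
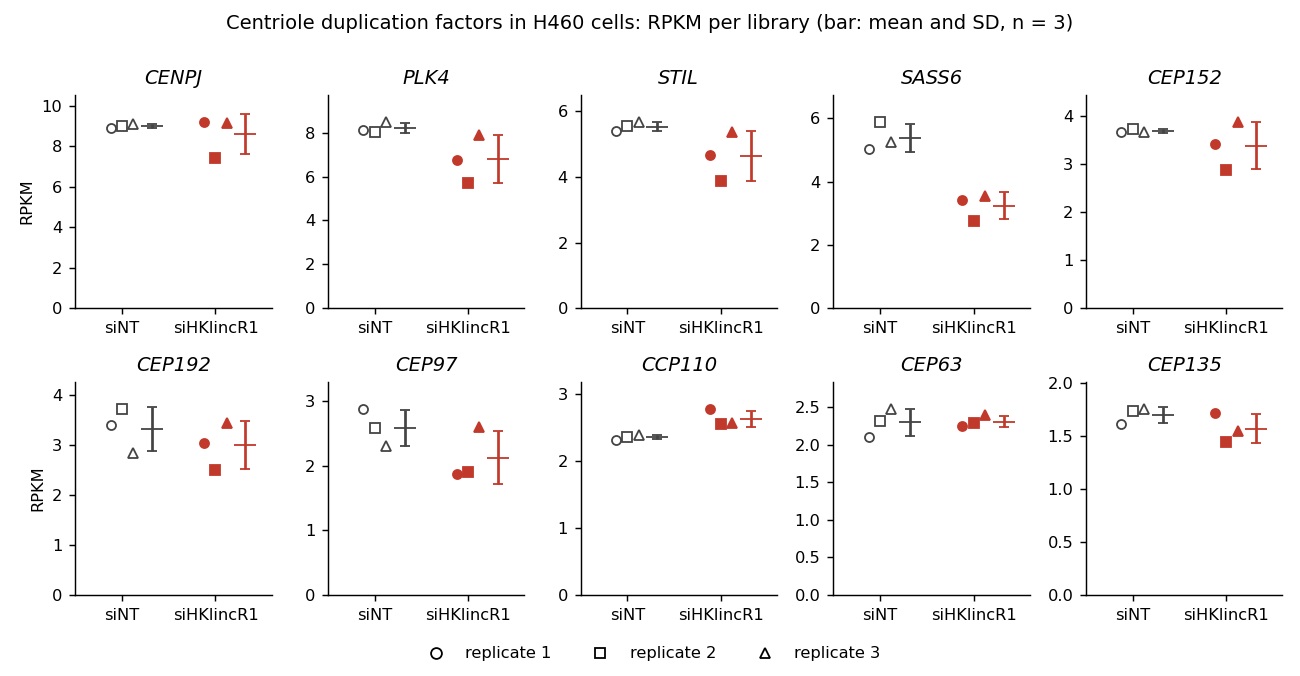
RPKM of the 10 centriole duplication factors in each library, one panel per gene with its own linear axis from 0. Open grey symbols are siNT and filled red symbols siHKlincR1 libraries, the symbol gives the replicate number, and the bar gives the mean and SD (n = 3). SASS6 has the widest gap between the groups, and siHKlincR1 replicate 2 is the lowest of 6 libraries for 7 of the 10 genes.

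None of the 10 factors passed the test over all genes. With limma on log2(RPKM + 0.1), 0 of 10 reached both thresholds of a call (adjusted p below 0.05, fold change over 1.5), where 0.356% of the 15451 tested genes were called lower and 0.00647% higher. The adjusted p alone was under 0.05 for 0 of 10, against 0.440% of tested genes lower and 0.0129% higher (1.72% and 1.20% with the replicate block). At an unadjusted p under 0.05, 2 of the 10 were lower (SASS6 and PLK4) and 0 were higher, against 9.19% of all tested genes lower and 7.04% higher. When limma held the replicate number as a block, 0 were called as well, against 0.809% of tested genes called lower and 0.511% higher, and STIL joined SASS6 and PLK4 at an unadjusted p under 0.05, against 14.0% lower and 12.3% higher. Voom, run on whole reads recovered from the RPKM values, called 1 of the 10, which was SASS6 (adjusted p = 0.0335), against 0.563% of tested genes called lower and 0.0129% higher. The groups did not overlap for 3 of the 10 in the lower direction and 1 in the higher direction, and 11.9% and 10.1% of all tested genes showed the same. Within the same-numbered pairs 3 of the 10 were lower in all 3 pairs and 1 was higher, against 25.2% and 24.0% of the tested genes. These were the factors whose groups did not overlap, so their pairs had to share a direction.

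**Figure D2:**
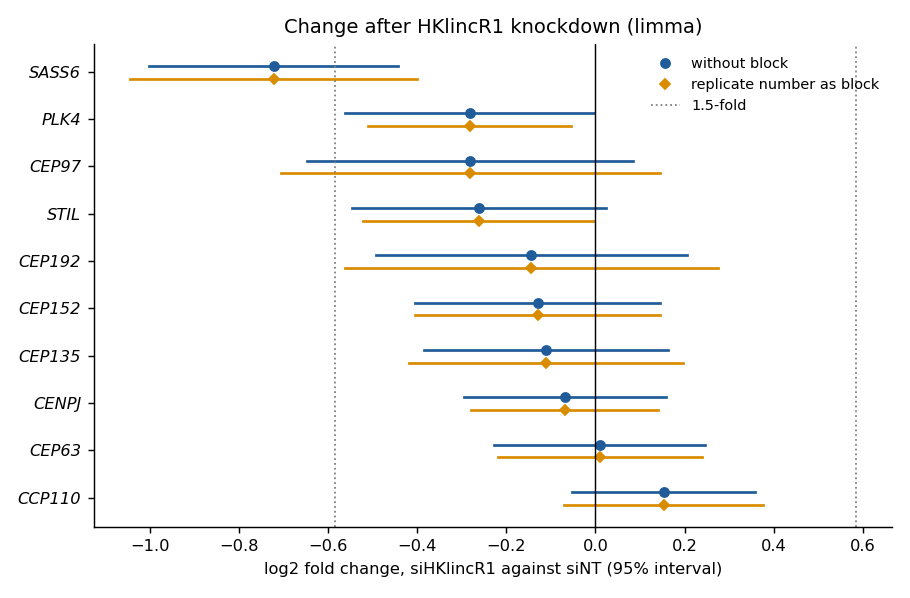
Log2 fold change (siHKlincR1 against siNT) of each factor with its 95% interval from limma, without a block (blue circles) and blocked by replicate number (orange diamonds), with dotted lines at 1.5-fold. SASS6 lies at -0.72, beyond 1.5-fold, and the other 9 lie between -0.28 and 0.15.

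In the siNT libraries the 10 factors spanned a 5.29-fold range of RPKM. CENPJ was the highest at 8.98 ± 0.0930 RPKM (SD, n = 3) and PLK4 followed at 8.21 ± 0.234 RPKM, without overlap between them. STIL at 5.54 ± 0.138 RPKM and SASS6 at 5.39 ± 0.437 RPKM came next, and their ranges overlapped. CEP152 at 3.68 ± 0.0454 RPKM, below every SASS6 value, overlapped with CEP192 at 3.31 ± 0.441 RPKM. CEP97 at 2.59 ± 0.285 RPKM overlapped with CEP192 above it and with CCP110 at 2.36 ± 0.0325 RPKM below it, which in turn overlapped with CEP63 at 2.29 ± 0.185 RPKM. CEP135 was the lowest, at 1.70 ± 0.0754 RPKM, below every CEP63 value. The cartwheel protein genes SASS6 and STIL were level with each other in the control cells, while the third cartwheel gene CEP135 was well below both. This order between genes depends on the gene lengths used. In the order of the siHKlincR1 means SASS6 was at place 5 instead of place 4, below CEP152.

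The cartwheel genes differed most among themselves. SASS6 (ENSG00000156876, GRCh37 chr1:100549119-100598511, minus strand) rested on 522 to 712 reads in the siNT libraries and 316 to 420 reads in the siHKlincR1 libraries. Counting error alone would give a coefficient of variation of 5.63% at 316 reads, against 13.1% between the siHKlincR1 replicates. Its log2 fold change was -0.72 (standard error 0.12, 95% interval -1.002 to -0.44, limma adjusted p = 0.0760, or 0.0548 with the replicate block). Within same-numbered pairs the log2 difference was -0.54, -1.07 and -0.56. The shared direction of the 3 pairs follows from groups that do not overlap and adds nothing to it. Leaving out siHKlincR1 replicate 3 brought the limma adjusted p to 0.0290, and leaving out any other single library gave values from 0.143 to 0.297. The log2 fold change ran from -0.81 to -0.55 over the 21 fits made.

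STIL (ENSG00000123473, chr1:47715811-47780564, minus strand), the partner that SASS6 binds, was at 5.39, 5.55 and 5.67 RPKM with siNT and at 4.67, 3.88 and 5.38 RPKM with siHKlincR1. The groups did not overlap, but the highest siHKlincR1 library almost reached the lowest siNT library. Its log2 fold change was -0.26 (95% interval -0.55 to 0.02, limma adjusted p = 0.333). CEP135 (ENSG00000174799, chr4:56815037-56899527, plus strand) was at 1.61, 1.73 and 1.75 RPKM with siNT and at 1.72, 1.44 and 1.54 RPKM with siHKlincR1. The groups overlapped, and the log2 fold change of -0.11 had an interval from -0.39 to 0.16 (limma adjusted p = 0.646), a range that holds the value of STIL and not that of SASS6.

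Among the factors that start duplication, only PLK4 had separate groups. PLK4 (ENSG00000142731, chr4:128802048-128820379, plus strand), the kinase that triggers duplication, was at 8.14, 8.03 and 8.48 RPKM with siNT and at 6.76, 5.72 and 7.90 RPKM with siHKlincR1. All siHKlincR1 libraries were lower, siHKlincR1 replicate 3 by little. The log2 fold change was -0.28 (95% interval -0.56 to -0.0028, limma adjusted p = 0.306). CEP152 (ENSG00000103995, chr15:49005125-49103343), a scaffold that binds PLK4, was at 3.65, 3.73 and 3.65 RPKM with siNT and at 3.41, 2.87 and 3.86 RPKM with siHKlincR1. CEP192 (ENSG00000101639, chr18:12991361-13125051), the other scaffold for PLK4, was at 3.40, 3.70 and 2.84 RPKM and at 3.04, 2.50 and 3.44 RPKM in the same order. In both genes the third siHKlincR1 library was among the higher values and the second was the lowest of the 6. Their log2 fold changes were -0.13 for CEP152 and -0.14 for CEP192 (limma adjusted p = 0.589 and 0.638). CEP63 (ENSG00000182923, chr3:134204541-134306631), which holds CEP152 at the centriole, was at 2.10, 2.32 and 2.47 RPKM with siNT and at 2.24, 2.28 and 2.39 RPKM with siHKlincR1. All siHKlincR1 values of CEP63 fell inside the siNT range, and its log2 fold change of 0.0097 (95% interval -0.23 to 0.25, limma adjusted p = 0.968) changed sign without siNT replicate 1 (-0.05) and without siHKlincR1 replicate 3 (-0.015).

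The genes for elongation and capping did not move together. CENPJ (ENSG00000151849, chr13:25456417-25497027) was at 8.89, 8.97 and 9.07 RPKM with siNT and at 9.17, 7.44 and 9.17 RPKM with siHKlincR1. It was lower in siHKlincR1 replicate 2 and slightly above the siNT range in the other two, and its log2 fold change of -0.07 (limma adjusted p = 0.731) became 0.03 without that library. CCP110 (ENSG00000103540, chr16:19535133-19564730), which caps the centriole end and has to be removed before a cilium can grow, was at 2.32, 2.37 and 2.39 RPKM with siNT and at 2.77, 2.56 and 2.57 RPKM with siHKlincR1. It was the only one of the 10 whose siHKlincR1 values all lay above the siNT values, with a log2 fold change of 0.15 (95% interval -0.05 to 0.36, limma adjusted p = 0.406). CEP97 (ENSG00000182504, chr3:101443378-101489406), the partner that recruits CCP110, was at 2.87, 2.58 and 2.30 RPKM with siNT and at 1.87, 1.90 and 2.61 RPKM with siHKlincR1. The groups overlapped because the third siHKlincR1 library lay within the siNT range, and the log2 fold change was -0.28 (95% interval -0.65 to 0.08, limma adjusted p = 0.394).

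Ratios between 2 factors in the same library remove whatever the factors share in that library. The ratio of SASS6 to STIL was 0.932, 1.06 and 0.928 with siNT and 0.736, 0.709 and 0.657 with siHKlincR1, which is 27.96% lower on average. The ratio of SASS6 to PLK4 averaged 0.657 ± 0.0650 with siNT and 0.479 ± 0.0305 with siHKlincR1 (SD, n = 3), which is 27.1% lower, and the ratios of SASS6 to CEP152 and to CEP135 were 34.3% and 34.9% lower. In all 4 ratios the groups did not overlap (p = 0.10 for each by the same exact permutation test), so SASS6 was lower relative to each of these 4 factors in every siHKlincR1 library. By contrast the ratio of STIL to PLK4 hardly differed between libraries, at 0.663, 0.692 and 0.668 with siNT and 0.690, 0.679 and 0.680 with siHKlincR1 (exact permutation p = 0.50). The ratio of CCP110 to CEP97 was 0.809, 0.916 and 1.04 with siNT and 1.48, 1.35 and 0.986 with siHKlincR1, and the groups overlapped through siHKlincR1 replicate 3 (exact permutation p = 0.20). The ratio of CEP152 to CEP192 averaged 1.12 with siNT and 1.13 with siHKlincR1 (exact permutation p = 1.0). With 7 ratios compared, none can pass a correction for multiple tests at this number of libraries. The 4 ratios with SASS6 share that gene, whose own groups did not overlap, so they are not 4 separate results. Ratios of SASS6 to the remaining factors were not formed, and no share over all genes was worked out for ratios.

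**Figure D3:**
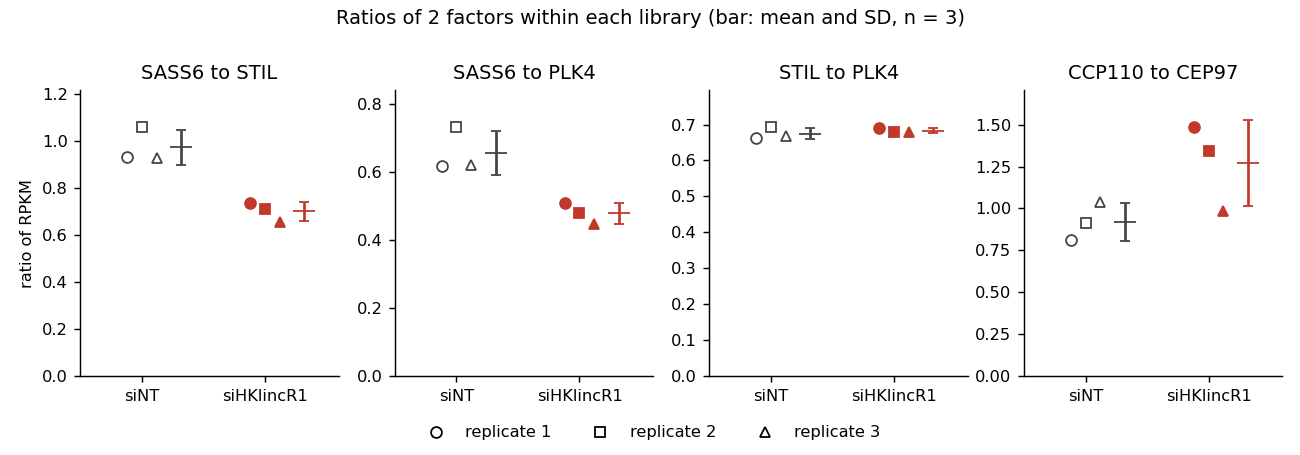
Ratios of the RPKM of 2 factors within each library, on linear axes from 0, with symbols for replicate numbers and bars for the mean and SD (n = 3). SASS6 is lower relative to STIL and to PLK4 in all siHKlincR1 libraries, the ratio of STIL to PLK4 is level, and the ratio of CCP110 to CEP97 overlaps between groups.

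The 3 siHKlincR1 libraries did not behave alike for these genes. Relative to the siNT mean, the median log2 deviation of the 9 factors other than SASS6 was -0.11 in siHKlincR1 replicate 1, -0.35 in replicate 2 and 0.03 in replicate 3, and 8 of the 9 were below the siNT mean in replicate 2 against 3 of 9 in replicate 3. The median of all tested genes was 0.011, -0.0039 and -0.00029 in the same libraries. Replicate 2 was the lowest of all 6 libraries for 7 of the 10 factors, where 25.7% of all tested genes had their lowest value in it. SASS6 deviated by -0.63, -0.94 and -0.59, so it was well below the siNT mean also in replicate 3. CEP135, PLK4 and STIL were the 3 of 9 below it there, at -0.128, -0.054 and -0.042. Each of these 3 was also below every siNT library of that gene. The medians of cell cycle markers were also lowest in replicate 2 and near 0 in replicate 3. The median deviation of 42 S phase markers was -0.33, -0.44 and 0.0090 in the 3 siHKlincR1 libraries, and that of 54 G2/M markers was -0.13, -0.42 and 0.02. Single factors differed from this pattern, and CCP110 was above the siNT mean in all 3, at 0.22, 0.11 and 0.12. Single markers differed from their medians too. For 9 of the 42 S phase and 11 of the 54 G2/M markers every siHKlincR1 library, replicate 3 included, lay below every siNT library, as for SASS6. For 0 of either list they all lay above. Among all tested genes the shares were 11.9% below and 10.1% above. The part of cell cycle phase in the levels of the 9 factors was not tested. HKlincR1 itself was lowest in replicate 3, on 27 reads against 37 and 42 in replicates 1 and 2. Counting error alone would give a coefficient of variation of 19.2% at 27 reads, and the order of these 3 libraries was not tested.

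**Figure D4:**
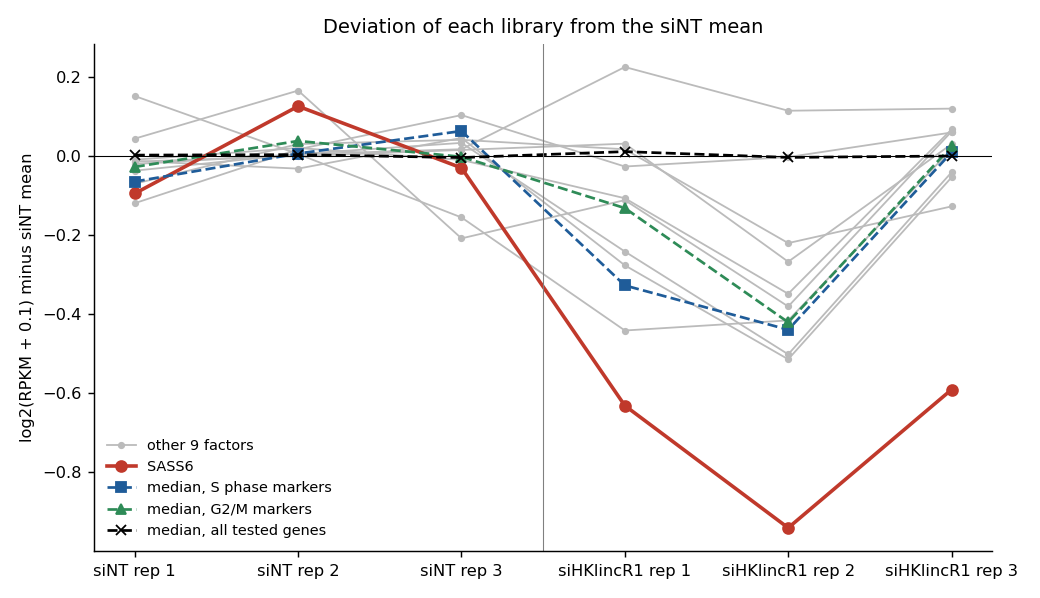
Deviation of log2(RPKM + 0.1) from the siNT mean in each library, with lines linking the values of one gene (red, SASS6; grey, the other 9 factors) and dashed lines for the medians of 42 S phase markers, 54 G2/M markers and all 15451 tested genes. In siHKlincR1 replicate 3 the medians of both marker lists are near 0, at 0.0090 and 0.02, while SASS6 is at -0.59. Single markers are not drawn, and 9 of the 42 S phase and 11 of the 54 G2/M markers were below every siNT library there too.

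The sequence of the siRNA is shown because a guide strand can also lower transcripts that pair with its seed, positions 2 to 8 from its 5′ end. The capitals mark the seed in the guide strand and the bases complementary to it in the sense strand.
siHKlincR1_2 sense strand: gaaguauacucGUGUGCUu
siHKlincR1_2 guide strand: aAGCACACgaguauacuuc
A transcript pairs with this seed where it reads GTGTGCT. Of the 10765 tested protein-coding genes with an annotated 3′ UTR in GENCODE v44, 14.1% hold this sequence there, a share not matched for the length of the 3′ UTR. Of the 10 factors, SASS6 and CEP63 hold 1 copy each in the 3′ UTR of the canonical transcript and the other 8 hold 0. The 2 sites are printed with 10 bases on each side, the site in capitals.
SASS6 site: agacttccaaGTGTGCTaattctttac
CEP63 site: taagggggggGTGTGCTaaagaacctt
The SASS6 site lies on the minus strand at GRCh37 chr1:100549265-100549271 and starts at base 1613 of a 3′ UTR of 1758 bases. The CEP63 site lies on the plus strand at chr3:134280913-134280919 and starts at base 536 of 3496. Both are followed by an A. The 2 genes differed in their values, with a log2 fold change of -0.72 for SASS6 and 0.0097 for CEP63. For CEP63 the RPKM used a length of 10114 bases, where its exons cover 24294 bases in GENCODE v44. Whether the CEP63 transcripts counted here hold the site is therefore not known, which limits this comparison. A match is a description of the sequence, and the part of the seed in the level of SASS6 was not tested here. CEP192 holds 3 copies outside its 3′ UTR, and CEP63 holds 2 in its whole transcript. In GENCODE v44 SASS6 shares 292 bases with a long non-coding gene on the same strand (ENSG00000241073), which was listed at 0 in all libraries. CEP63 shares 2022 bases with another long non-coding gene on its own strand (ENSG00000288700), which was not listed.

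The genes whose pattern over the 6 libraries was most like that of SASS6 were found by the root mean square difference of centred log2(RPKM + 0.1) values among the 13400 genes averaging 1 RPKM or more, with no test. The nearest was TRIM24, a transcriptional co-regulator, at a difference of 0.0897, with 3.96, 3.93 and 3.96 RPKM in the siNT and 2.61, 2.17 and 2.87 RPKM in the siHKlincR1 libraries. SLC25A40, a mitochondrial carrier, was at a difference of 0.0955 and RNF157, a RING-finger ubiquitin ligase, at 0.10. The processed pseudogenes ENSG00000237861 (0.0906) and UBBP1 (0.0993) completed the 5, and their values are uncertain because reads from near-identical copies cannot be separated. The log2 fold change was -0.62 for TRIM24, -0.85 for SLC25A40 and -0.53 for RNF157 (limma adjusted p = 0.0973, 0.0311 and 0.213). With the replicate block TRIM24 was called (limma adjusted p = 0.0498). The 5 genes were chosen by their values in the same 6 libraries. Fold changes near that of SASS6 therefore follow from the choice, and these p-values are no separate test. Each of these 3 protein-coding genes holds 1 copy of GTGTGCT in its 3′ UTR, where 14.1% of the tested protein-coding genes with a 3′ UTR hold this sequence. The 3′ UTR has 5045 bases in TRIM24, 2681 in SLC25A40 and 2761 in RNF157. A longer 3′ UTR has more places for a match, and the share of 14.1% was not matched for length. The part of the seed in their levels was not tested. Their sites are printed here in the same way as those of SASS6 and CEP63.
TRIM24 site: tggtttggatGTGTGCTttaattcagc
SLC25A40 site: tttttgaattGTGTGCTgaatgatgta
RNF157 site: gccagcagcaGTGTGCTgggagcagag
They lie at GRCh37 chr7:138270095-138270101, chr7:87465211-87465217 and chr17:74140038-74140044, and none of the 3 is followed by an A. The other centriole factors were further from SASS6 than any of these, with PLK4 at a difference of 0.240 (rank 666 of the genes compared) and STIL at 0.242 (rank 698), while CCP110 was the furthest at 0.453 (rank 9269).

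The promoters of all 10 factors were found in RefSeq (GRCh38.p14, from 250 bases before to 50 after the annotated start) and searched on both strands for short motifs known from cell cycle genes. The cell cycle homology region was searched as TTTGAA or TTCGAA and the E2F motif as TTCGCGC or as TTGGCGC or as TTCCCGC. The CCAAT box was searched as well and was found in 4 of the 10 and in 35.7% of all 27305 promoters. An E2F motif was found in 5 of the 10 promoters (CEP152, CEP192, CEP63, SASS6 and STIL) and in 11.2% of all 27305 promoters. The homology region was found in 4 of the 10 (PLK4, CEP152, CEP192 and CEP135) and in 16.6% of all, and both together in 2 of the 10 and in 1.18% of all. The 27305 promoters were not limited to the tested genes, whereas all 10 factors were tested. These shares are therefore no matched background, and an excess of motifs in the 10 was not tested. The E2F and homology region matches of the 3 genes that were lower in every siHKlincR1 library are printed in the direction of the gene, with the motif in capitals.
SASS6, E2F motif: gaagccgaGCGCCAAactcaaac
STIL, E2F motif: cgcctcagTTCCCGCgaccccaa
PLK4, homology region: gggagattTTCAAAatggga
The SASS6 match is TTGGCGC read on the other strand, at GRCh38 chr1:100132909-100132915. The STIL match lies at chr1:47314139-47314145, and the PLK4 match is TTTGAA on the other strand at chr4:127880931-127880936. These are matches of letters in a window, not binding sites shown in these cells. CCP110, CENPJ and CEP97 held neither motif in these windows.

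The other genes of the centrosome were described in lists written by hand. Of 34 further centriole assembly factors 18 were lower and 16 higher, with a median log2 fold change of -0.04 (0.0011 over all tested genes). Limma called 0, with 7 lower and 2 higher at an unadjusted p under 0.05. Over all tested genes 49.8% were lower and 50.2% higher by sign, and 9.19% lower and 7.04% higher at that p. With the replicate block, limma called 1 lower and 2 higher, against the shares of 0.809% and 0.511% over all tested genes. The lower gene was CCNF, the F-box protein cyclin F that marks CCP110 for degradation, at 7.53 ± 0.706 RPKM with siNT and 4.90 ± 1.13 RPKM with siHKlincR1 (SD, n = 3, log2 fold change -0.63, limma adjusted p = 0.182, block 0.0471). The higher genes were CEP120, which works with CENPJ in elongation, at 10.9 ± 2.70 RPKM with siNT and 17.0 ± 2.79 RPKM with siHKlincR1 (log2 fold change 0.66, limma adjusted p = 0.231, block 0.0328), and TUBE1, the epsilon-tubulin that stabilises centriole microtubules, at 2.36 ± 0.939 RPKM with siNT and 4.33 ± 1.35 RPKM with siHKlincR1 (log2 fold change 0.89, limma adjusted p = 0.301, block 0.0298). The groups did not overlap for CCNF and CEP120 and overlapped for TUBE1. CCNF was named because it was the 1 gene called lower. For CEP43, a protein of the distal centriole, the groups were separate (log2 fold change -0.73, limma adjusted p = 0.142, block 0.0722).

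The remaining centrosome lists held no called gene, though in some of them groups that did not overlap were frequent. Of 17 tested appendage and linker proteins 12 were higher and 5 lower (median log2 fold change 0.14), led by LRRC45 at -0.50, CNTRL at 0.44 and CEP83 at 0.37 (limma adjusted p = 0.264, 0.250 and 0.236). Of 17 tested genes of the pericentriolar material and gamma-tubulin complexes 10 were higher and 7 lower (median 0.036), with TUBG1, the gamma-tubulin that nucleates microtubules, at -0.38, TACC3 at -0.35 and the kinase PLK1 at -0.31 (limma adjusted p = 0.337, 0.425 and 0.330). Of 10 genes for ubiquitin control of these factors 6 were lower (median -0.07), with FZR1, an activator of the anaphase-promoting complex that degrades SASS6, at -0.34, CDC20 at -0.22 and FBXW11 at -0.18 (limma adjusted p = 0.198, 0.344 and 0.265). Of 7 genes that report an abnormal centrosome number 5 were lower (median -0.13), with PIDD1 at -0.32 and MDM2 at -0.24 (limma adjusted p = 0.246 and 0.212). Limma called 0 genes of these 4 lists with or without the block. At an unadjusted p under 0.05 without the block, 1 appendage gene was lower and 4 were higher, and 1 gene of the pericentriolar material was higher. For ubiquitin control 2 genes were lower, and 3 genes of the centrosome number list passed it in either direction. The shares over all tested genes were 9.19% lower and 7.04% higher at that p, and 49.8% and 50.2% by sign. The groups did not overlap for 7 of the 17 appendage and linker genes in the higher direction and 0 in the lower. For ubiquitin control it was 4 of 10 lower and 1 higher, and for the pericentriolar material 0 lower and 1 higher. Among all tested genes 11.9% were separate in the lower and 10.1% in the higher direction.

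Regulators and markers of the cell cycle were lower more often than higher. Of 17 E2F, RB-like and MuvB genes, which control many cell cycle promoters, 11 were lower (median log2 fold change -0.13), led by E2F8 at -0.63, FOXM1 at -0.53 and E2F2 at -0.47 (limma adjusted p = 0.142, 0.223 and 0.301). Of 42 S phase markers 38 were lower (median -0.25), led by CCNE2 at -0.90, CDC6 at -0.65 and FEN1 at -0.64 (limma adjusted p = 0.230, 0.174 and 0.264). Of 54 G2/M markers 46 were lower (median -0.17), led by TUBB4B at -0.58, ANLN at -0.54 and HMGB2 at -0.50 (limma adjusted p = 0.291, 0.347 and 0.182). Limma called 0 genes of these 3 lists, with 7, 12 and 8 lower at an unadjusted p under 0.05 and 1, 0 and 0 higher. Among all tested genes 9.19% were lower and 7.04% higher at that p, and 49.8% were lower by sign. With the replicate block limma called CDC6 (limma adjusted p = 0.0436), where 0.809% of tested genes were called lower. The median of the 10 duplication factors was -0.14, and that of the 9 without SASS6 was -0.13.

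**Figure D5:**
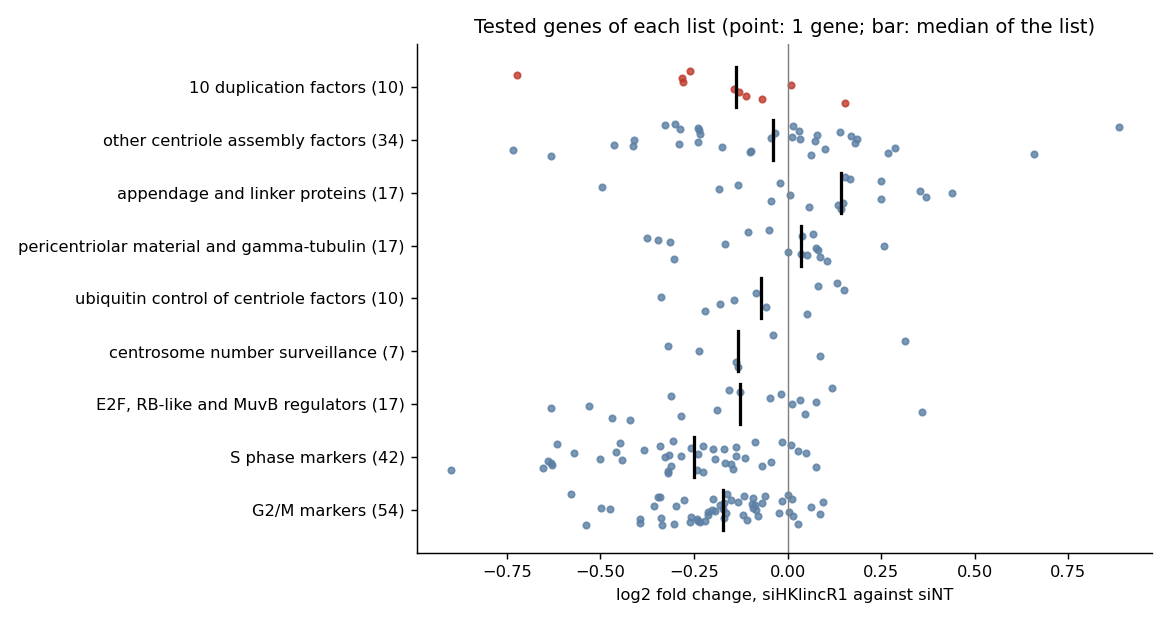
Log2 fold change (siHKlincR1 against siNT) of every tested gene of each list, with the number tested in brackets, one point per gene and a bar at the median (the height within a row has no meaning). The medians are -0.14 for the 10 duplication factors, 0.14 for appendage and linker proteins and -0.25 for S phase markers.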

How the data were processed

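RNA from 6 H460 cultures was sequenced by the authors in strand-specific polyA libraries. Per the labels, CASAVA 1.8.2 and featureCounts were used with hg19/GRCh37. Gene-level reads were obtained by the authors with Rsubread for Ensembl (v74) models, and the deposited values are RPKM. The aligner and the strand setting are not given in the sources used here, so genes that overlap on opposite strands are uncertain (CEP63 shares 455 bases with ANAPC13).

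Here the RPKM values of 57773 genes were used as deposited. Because they are not rounded, library totals and whole reads were worked back from them for all 31287 genes above 0 (relative tolerance 1e-06). A common factor is lost in this way, and for SASS6 it was restored (2) from its annotated exon length of 3972 bases. The 15451 genes averaging 0.5 RPKM or more over the libraries were tested by limma (3.58.1, R 4.3.3) with a variance trend, on a log2 scale with 0.1 added to each RPKM, siHKlincR1 against siNT, with Benjamini-Hochberg adjustment over all tested genes. Fold changes of low genes are understated on this scale. Calls needed both an adjusted p below 0.05 and a fold change over 1.5. The fit was tested on simulated data. Single values were compared with exact permutation tests (scipy 1.17.1). The libraries are biological replicates per the labels. The replicate numbers of the labels were taken to pair the libraries. Deviations from the group means correlated by 0.137 to 0.266 in the 3 same-numbered pairs (-0.209 to 0.113 in the others). Deviations sum to 0 within a group, so higher values in some pairs force lower ones in others. The pairing is therefore an assumption that these correlations do not settle. The replicate block changed no call among the 10 factors and is given where it changed the call of another named gene. Genes named in lists are the 3 with the largest change in each and, for SASS6, the 5 nearest by pattern. One gene that this rule would name is not reported here. Names came from GENCODE v44 on GRCh37 (55538 identifiers matched). The 10 factors and the lists were chosen with earlier results of these data known.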

Additional observations from a re-analysis of the deposited data

How the results depend on the processing

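SASS6 was lower in all 21 fits made, as were PLK4, STIL, CEP97, CEP135 and CEP152, and CCP110 was higher in all 21. SASS6 passed an adjusted p under 0.05 with voom on the reads (log2 fold change -0.74, adjusted p = 0.0335), with voom and the replicate block (-0.74, adjusted p = 0.00749) and without siHKlincR1 replicate 3 (-0.79, adjusted p = 0.0290), and was then the 1 factor called where 0 were called otherwise. Over the fits that left out 1 library its log2 fold change lay between -0.79 and -0.61, and over those that left out a same-numbered pair with the replicate block between -0.81 and -0.55. The number of called genes among all tested was 56. It was 204 with the replicate block, 424 with the block and voom, 89 with voom, 17 without the variance trend, 7 to 520 without 1 library (520 without siHKlincR1 replicate 3) and 129, 25 and 189 with the block and without pair 1, 2 and 3. Some factors near 0 changed sign. CENPJ ran from -0.12 to 0.030 over the fits without 1 library and was at 0.030 with the replicate block and without pair 2. CEP63 ran from -0.050 to 0.061 without 1 library, was at -0.015 without siHKlincR1 replicate 3, and was at -0.032 with the block and without pair 1. CEP192 was at 0.057 with the block and without pair 2. The cause was not tested. With the replicate block CCNF, CEP120, TUBE1, CDC6 and TRIM24 became calls, and the call of no other gene named in the text changed. The voom fits with the block and the fits without a pair were chosen after seeing the data. A factor rested on 316 to 1386 reads per library, and intervals from reads cover counting error only.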
